A study of Sus scrofa with 4 samples.

Results

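The 32 genes described here encode glucose transport, the steps of glycolysis and lactate handling, together with HIF1A and a set of its targets. They were chosen by gene symbol, and all 32 had an entry among the 20648 genes of the count matrices. By role they were 2 glucose transporters, 4 genes of the hexokinase and isomerase steps, 5 phosphofructokinases and their regulators, 9 genes of lower glycolysis, 4 genes of pyruvate and lactate, and 8 genes of HIF1A and its targets. Entries were matched by symbol, and 31 of the 32 had a single locus in the RefSeq annotation of Sscrofa11.1. The symbol LDHB had 2 loci there and 1 entry in the files, so its values are uncertain.

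Cells were isolated from the regenerated bone of Bama mini-pigs aged 8 months, by collagenase digestion followed by lysis of red cells, and profiled with droplet-based 3′ single-cell RNA sequencing. Animals had received the 1797 peptide (2 libraries) or a control peptide (2 libraries). The design text counts more control samples than the 2 studied here, and the others were not analysed here. The labels give no sequence, dose or time of the peptides, no untreated group, and do not say whether 2 libraries with the same peptide came from 2 animals or 1, so each p-value measures only the spread between these libraries.

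Glycolysis splits glucose into pyruvate in the cytosol and yields ATP without oxygen, and lactate dehydrogenase then regenerates the NAD+ it consumes. HIF1A is the oxygen-regulated subunit of a transcription factor that is degraded in oxygenated cells and, when stable, raises the transcription of most glycolytic genes and of targets such as BNIP3, CA9, ADM and EGLN3. Its activity is controlled largely at the protein level, which these RNA counts do not measure. Neutrophils rely heavily on glycolysis, growth cartilage is a tissue without vessels in which HIF1A is required for chondrocyte survival, and bone-resorbing osteoclasts are rich in mitochondria.

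The 4 libraries held 54060 cell barcodes and between 87844389 and 98758412 unique molecular identifiers (UMIs) each, and 49137 cells were kept. Any pair of libraries shared 42 to 63 barcodes. Clustering, run without the genes studied here, gave 29 clusters; 5 stayed unnamed, and marker genes placed the others in 15 cell classes with 43174 cells. A class name here means that the clusters carried the markers of that cell type (neutrophil-like, and so on), not an identity established by other means. The classes were of unequal size and depth across libraries: eosinophil cells numbered 44, 202, 71 and 493 (1797 replicates 1 and 2, then control replicates 1 and 2), and chondrocyte cells numbered 42 in all. Levels are given in CPM, the UMIs of a gene per 1000000 UMIs of the class in that library. Summed levels of 9 erythroid markers were higher in both replicate 1 libraries than in both replicate 2 libraries in each of the 14 classes with 4 libraries, for example 2256 and 1045 against 92.4 and 75.3 CPM in endothelial cells. Cells of 1 library are not replicates, so counts were summed per class and library. Levels are stated as mean ± SD over the 4 libraries, or as 4 values in the library order just used. Differences between classes are descriptions without a test, because the classes were built from the same cells; levels are called separate where every library of one class exceeded every library of the next in the order.

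The rankings here and below are among the 15 named classes, which include no osteoclast class, and osteoclast-like cells are described separately. Over the 18 enzymes from hexokinase to lactate dehydrogenase, the summed level was highest in monocytes (4950 ± 546 CPM, n = 4). It was lowest in erythroid cells (1103 ± 236 CPM, n = 4). Chondrocytes stood at 4728 ± 969 CPM (n = 2, the 1797 libraries, since the control libraries held 1 and 5 such cells), eosinophils at 4400 ± 1534 CPM and macrophages at 4371 ± 794 CPM. Neutrophils reached 3078 ± 1162 CPM and plasmacytoid dendritic cells 1401 ± 132 CPM. With transporters and HIF targets included, the sum of all 32 genes was 8497 ± 568 CPM in neutrophils and 8060 ± 548 CPM in monocytes, and the spread of the libraries did not separate these classes. That sum was lowest in plasmacytoid dendritic cells, at 2340 ± 199 CPM, and erythroid cells followed with 2882 CPM.

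**Figure D1:**
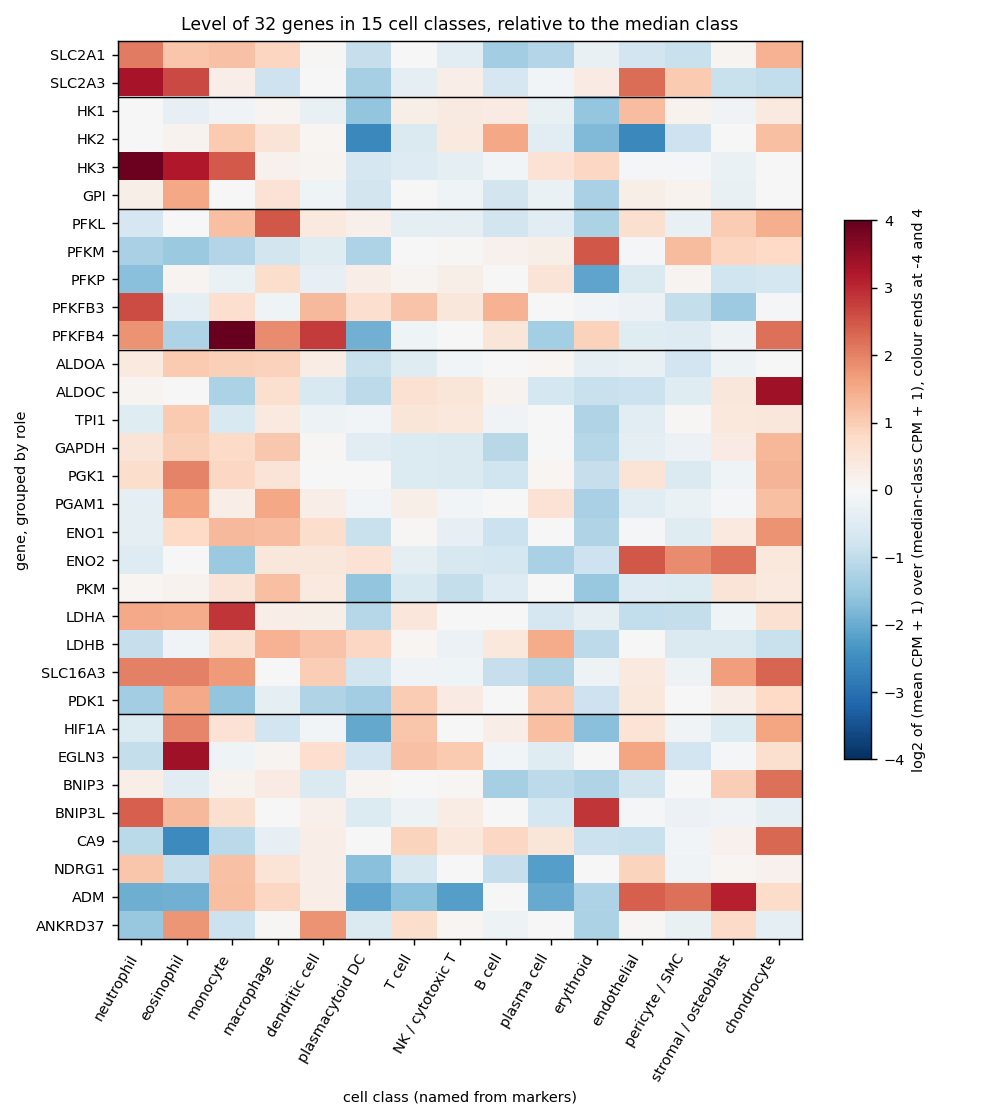
Level of each of the 32 genes (rows, grouped by role) in each cell class (columns), as the log2 of its mean CPM plus 1 over that of the median class; the colour scale ends at 4 in both directions, and DC stands for dendritic cell and SMC for smooth muscle cell. Eosinophils, chondrocytes and neutrophils hold 8, 6 and 4 of the highest levels, and plasmacytoid dendritic cells and erythroid cells 9 each of the lowest.

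Of the 2 transporters, SLC2A3, which encodes the high-affinity glucose transporter GLUT3 (chromosome 5, 62963635 to 63041955), was highest in neutrophils. Its level there was 1112, 1627, 2034 and 1269 CPM, a mean of 1511 ± 410 CPM. Eosinophils followed with 964 ± 508 CPM and endothelial cells with 718 ± 288 CPM; eosinophils overlapped both other classes, and the highest endothelial library (1093 CPM) lay just below the lowest neutrophil library. Plasmacytoid dendritic cells had the lowest level, 60.4 CPM. SLC2A1, which encodes the widely expressed transporter GLUT1, was also highest in neutrophils, at 120.3, 86.6, 135.3 and 60.5 CPM. Its range there overlapped those of chondrocytes (60.9 CPM) and monocytes (53.3 CPM), and the lowest level was in B cells, 8.09 CPM; with a stricter cell filter the neutrophil mean was 65.95 CPM. The balance of the pair differed between classes: SLC2A3 gave 97.8% of the UMIs of both genes in endothelial cells and 66.2% in macrophages. These shares are of UMIs from 3′ ends and are compared between classes only.

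The 3 hexokinases, which trap glucose in the cell by phosphorylation, divided by class. HK1, the ubiquitous isoform bound to mitochondria, was highest in endothelial cells at 374.9, 408.1, 378.2 and 470.3 CPM. All 4 of those libraries lay above every library of the next class in the order, chondrocytes (226 CPM), and HK1 made up 91.7 ± 2.0% of the hexokinase UMIs of endothelial cells. In monocytes HK1 made up 29.2%. HK2, the inducible isoform typical of muscle and of proliferating or activated cells, was highest in B cells at 749.5, 455.3, 314.8 and 285.2 CPM. The spread in B cells overlapped that of monocytes (323 ± 72 CPM), and 1797 replicate 1 alone gave the highest B cell value. HK2 made up 64.3 ± 8.9% of hexokinase UMIs in B cells, 58.7% in monocytes and 5.87% in endothelial cells. HK3, the isoform of the myeloid lineage, was highest in neutrophils at 135.8, 244.5, 104.9 and 258.6 CPM, where both replicate 2 libraries exceeded both replicate 1 libraries. It made up 35.1 ± 8.2% of the hexokinase UMIs of neutrophils, 27.1% of those of eosinophils and 12.1% of those of monocytes. GPI, the isomerase that makes fructose 6-phosphate, was highest in eosinophils at 259 ± 108 CPM, separate from macrophages at 130 CPM, although only 18 UMIs stood behind the eosinophil value in each replicate 1 library.

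**Figure D2:**
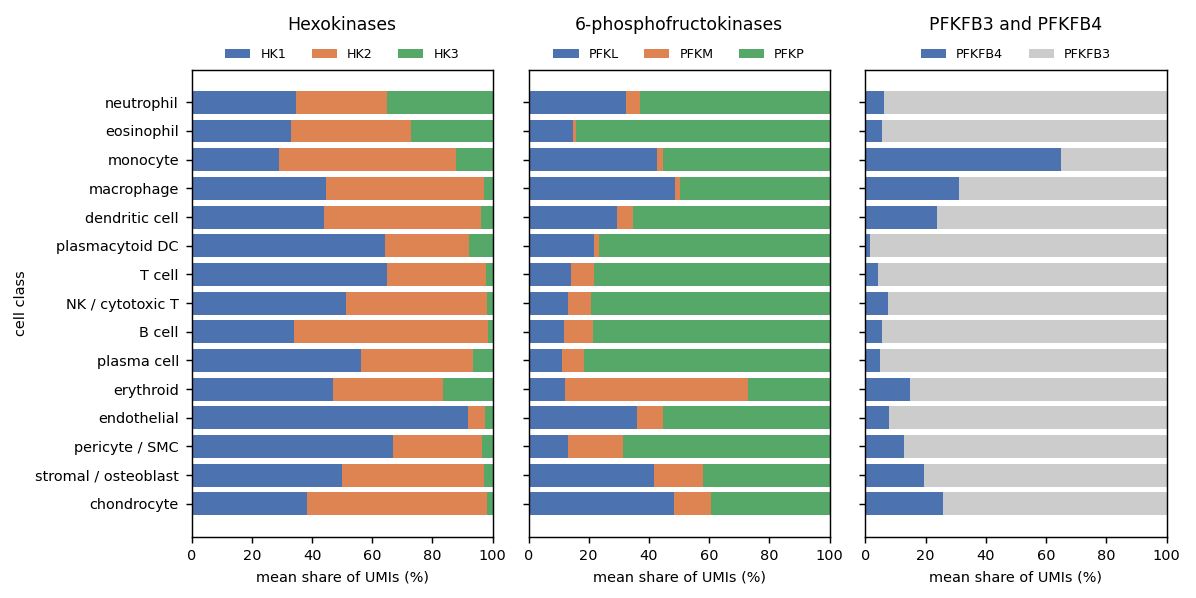
Mean share of UMIs over libraries (percent, stacked bars, without error bars) held by each isoform in each cell class, for the hexokinases, the phosphofructokinase subunits and the PFKFB3 and PFKFB4 pair. HK1 holds 91.7% of hexokinase UMIs in endothelial cells, HK2 64.3% in B cells, HK3 35.1% in neutrophils, and PFKFB4 65.0% of PFKFB3 and PFKFB4 UMIs in monocytes.

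PFKFB3 and PFKFB4 encode bifunctional enzymes that set the concentration of the strongest activator of phosphofructokinase, and their levels marked different myeloid cells. PFKFB3, whose product has the highest kinase activity of the family (chromosome 10, 64776315 to 64859118), was highest in neutrophils at 2465, 2341, 2695 and 1520 CPM. Every neutrophil library exceeded every library of the next class, B cells (951 ± 134 CPM). Dendritic cells (899 ± 83 CPM) and T cells (806 ± 70 CPM) followed within each other's spread, and stromal or osteoblast cells had the lowest level, 133 CPM. PFKFB4 (chromosome 13, 31212553 to 31259785) was highest in monocytes at 809.3, 938.7, 1210 and 1448 CPM, which was 27.9 times its median over the classes. All monocyte libraries exceeded those of dendritic cells (277 ± 62 CPM), the next class. PFKFB4 made up 52.2%, 63.3%, 66.0% and 78.3% of the UMIs of the pair in monocytes, 31.2 ± 5.0% in macrophages and 6.12% in neutrophils.

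The phosphofructokinase subunits, which carry out the committed step of glycolysis, had lower levels. PFKL, the liver-type subunit, was highest in macrophages at 61.3, 65.7, 46.6 and 54.98 CPM, separate from the next class, and made up 48.6 ± 3.1% of phosphofructokinase UMIs there. PFKP, the platelet-type subunit, was also highest in macrophages (59.2 ± 14.9 CPM), overlapping plasma cells (51.5 CPM), and gave 81.7% of the phosphofructokinase UMIs of plasma cells. PFKM, the muscle-type subunit, was highest in erythroid cells, but its libraries there spread from 1.46 to 56.2 CPM on 1, 7, 49 and 5 UMIs, and its mean there moved between 15.8 and 55.6 CPM over the other settings tried.

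**Figure D3:**
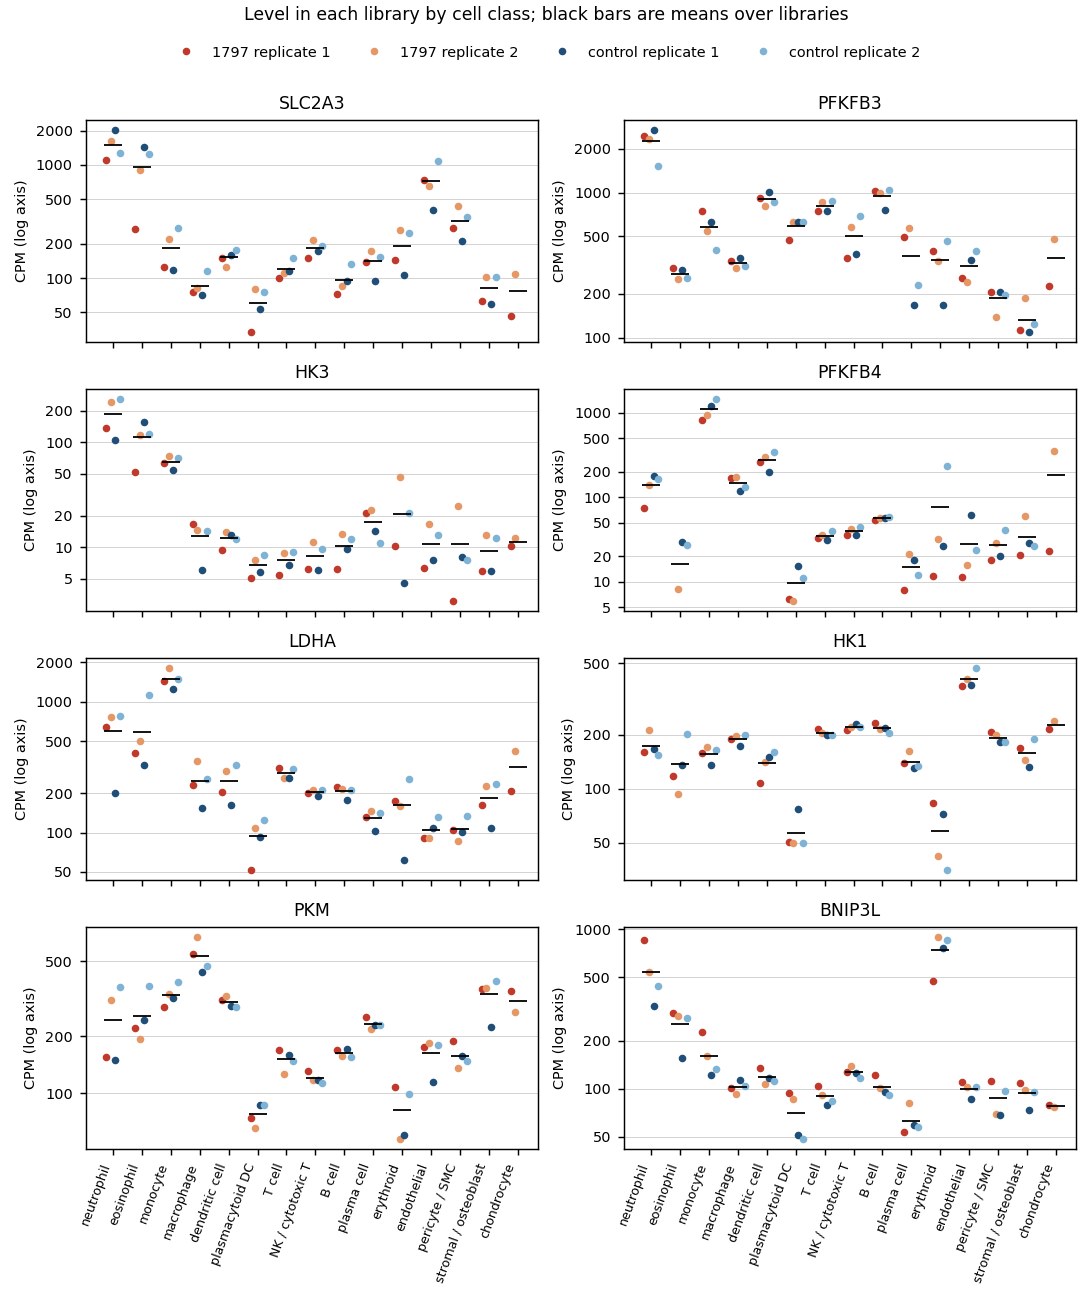
Level in CPM (log axis) of 8 genes in each cell class, with 1 point per library and black bars at the means; values of 0 are not drawn. PFKFB3 and SLC2A3 are highest in neutrophils, PFKFB4 and LDHA in monocytes, and HK1 in endothelial cells.

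In lower glycolysis the highest levels fell in chondrocytes, eosinophils and macrophages. GAPDH, the NADH-producing dehydrogenase, was highest in chondrocytes at 1951 and 1381 CPM in the 1797 libraries, and macrophages followed with 1391, 1761, 1053 and 1384 CPM; the ranges overlapped. ENO1, the ubiquitous enolase, reached 1169 and 780.9 CPM in chondrocytes, separate from monocytes (700 ± 78 CPM), the next class, but overlapping macrophages (662 ± 134 CPM). ALDOC, the aldolase best known from brain, had 102.1 and 10.1 CPM in chondrocytes and means of at most 7.41 CPM in every other class. PKM, the pyruvate kinase of most adult cells, was highest in macrophages at 546.5, 670.2, 438.2 and 473.2 CPM, separate from stromal or osteoblast cells (334 CPM). ENO2, the enolase of neurons and a HIF target, was low everywhere and highest in endothelial cells at 19.4 ± 12.7 CPM, overlapping stromal or osteoblast cells (15.5 CPM). The remaining members had their highest means in eosinophils: ALDOA, an aldolase, stood at 303 CPM, TPI1, the triose phosphate isomerase, at 242 CPM, PGK1, the first ATP-producing enzyme, at 215 CPM and PGAM1, a mutase, at 269 CPM. The eosinophil libraries overlapped those of the next class for each of these 4 genes.

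At the end of the pathway, LDHA, the subunit that favours lactate formation (chromosome 2, 40814163 to 40827284), was highest in monocytes at 1447, 1809, 1253 and 1491 CPM. Every monocyte library exceeded every library of neutrophils, the next class, where the values were 636.4, 764.8, 201.4 and 775.1 CPM. LDHB, the heart-type subunit, gave 42.2% of lactate dehydrogenase UMIs in plasma cells and 39.4% in plasmacytoid dendritic cells, against 3.34% in monocytes and 2.92% in neutrophils. SLC16A3, the lactate exporter MCT4, was highest in chondrocytes (34.5 CPM) and neutrophils (27.7 CPM), whose ranges overlapped. PDK1, a kinase that inactivates pyruvate dehydrogenase, was highest in eosinophils (91.7 ± 19.1 CPM) and T cells (63.6 CPM), whose libraries overlapped. At the coarser cluster resolution (eosinophil mean 68.5 CPM) and in each control library alone, plasma cells had the highest PDK1 mean. PDK1 was lowest in monocytes (9.76 CPM), overlapping plasmacytoid dendritic cells (11.2 CPM). Monocytes had the highest LDHA level and plasmacytoid dendritic cells the lowest.

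Among HIF1A and its targets, HIF1A itself was highest in eosinophils at 534.6, 642.9, 359.5 and 622.8 CPM. Chondrocytes (419 CPM) and plasma cells (322 CPM) overlapped that range, and plasmacytoid dendritic cells had the lowest level, 32.7 CPM. BNIP3L, a mitophagy receptor needed to clear mitochondria from maturing red cells (chromosome 14, 10318688 to 10345689), was highest in erythroid cells at 473.9, 896.6, 759.9 and 858.3 CPM. Neutrophils had 858, 542.3, 333.2 and 444.7 CPM, overlapping erythroid cells but separate from eosinophils (255 CPM). The erythroid mean of 747 CPM was 372 CPM with a stricter cell filter and 1236 CPM when scaled without mitochondrial, ribosomal and haemoglobin genes, and neutrophils had the highest mean under that filter and at both other cluster resolutions. BNIP3, its paralogue, was instead highest in chondrocytes (217.2 and 91.3 CPM), separate from stromal or osteoblast cells (65.2 ± 6.2 CPM). BNIP3L thus made up 98.0% of the UMIs of the pair in erythroid cells and 36.2% in chondrocytes.

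The other targets had their highest levels in different classes. NDRG1, a stress-responsive gene, was highest in monocytes (717 ± 133 CPM), and neutrophils (687 ± 287 CPM) and endothelial cells (590 CPM) overlapped them. ADM, which encodes the vasodilator adrenomedullin, was highest in stromal or osteoblast cells at 113.9, 91.7, 40.1 and 138.7 CPM, followed by endothelial cells (57.5 ± 18.2 CPM) and pericytes or smooth muscle cells (50.8 CPM). CA9, a carbonic anhydrase widely used as a hypoxia marker, had 54.3 and 14.2 CPM in chondrocytes and 12.4 CPM in T cells. EGLN3, an oxygen-sensing prolyl hydroxylase, averaged 83.7 ± 82.1 CPM in eosinophils, where 1 library (control replicate 2, 201.6 CPM) stood far above the others; without it the mean was 44.3 CPM. ANKRD37, an ankyrin repeat gene, averaged 35.6 ± 9.3 CPM in dendritic cells and 34.6 CPM in eosinophils, whose libraries overlapped; eosinophils had the higher mean under the stricter cell filter and at the coarser cluster resolution.

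Over all 32 genes, eosinophils had the highest mean for 8, chondrocytes for 6 and neutrophils for 4, and 1, 4 and 1 of these were separate from the next class. Eosinophil cells were shallow, with a median of 758.5 to 1428 UMIs, and erythroid markers there summed to 2060, 614, 4130 and 799 CPM; the part of these values in the eosinophil levels was not tested. The class with the highest mean was the same for 19 to 25 of the 32 genes when a single library was used. It was the same for 25 and 24 genes in the 1797 libraries, and for 19 and 20 in the control libraries. Chondrocytes had no level in the control libraries, so the 6 genes highest in chondrocytes had to change there.

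Within the neutrophils, the 5 clusters differed in these genes. Clusters 6 and 7 were led by granule genes (CRISP3, MMP8 and LTF in cluster 6; AZU1 and ELANE in cluster 7), which are made in bone marrow before neutrophils mature; cluster 3 was led by interferon-induced IFIT genes, and the top 10 genes included CXCL8 in cluster 1 and C5AR1 and TREM1 in cluster 8. PFKFB3 averaged 3299, 3213 and 2798 CPM in clusters 1, 3 and 8, against 665 CPM in cluster 6 and 242 CPM in cluster 7. SLC2A1 averaged 143, 128 and 110 CPM in clusters 1, 3 and 8, against 25.6 and 21.6 CPM in clusters 6 and 7. NDRG1 averaged 876, 910 and 927 CPM in clusters 1, 3 and 8, against 415 and 132 CPM.

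Of the 18 enzymes from hexokinase to lactate dehydrogenase, 11 had a higher mean in both granule-gene clusters than in clusters 1, 3 and 8, ENO2 had a lower one, and 6 were not parted. Their summed means were 1890, 1616 and 3029 CPM in clusters 1, 3 and 8, against 5989 CPM in cluster 6 and 4457 CPM in cluster 7. GPI averaged 19.7, 15.2 and 20.04 CPM in clusters 1, 3 and 8, against 251 CPM in cluster 6 and 264 CPM in cluster 7. PKM averaged 95.01, 82.8 and 164 CPM in clusters 1, 3 and 8, against 557 and 497 CPM. ENO1 averaged 73.7, 72.6 and 75.7 CPM in clusters 1, 3 and 8, against 301 and 672 CPM. HIF1A was likewise lower in clusters 1, 3 and 8 (38.6, 31.8 and 35.4 CPM) than in clusters 6 and 7 (222 and 207 CPM). Of the other 14 genes, SLC2A1, SLC2A3, PFKFB3, BNIP3 and NDRG1 were lower in both granule-gene clusters, 4 were higher, and 5 were not parted. The share of all genes that parted between these clusters was not computed. The counts for the enzymes and for the other genes are therefore not set against a background and describe the listed genes only. Clusters 6 and 7 made up 4.7%, 15.7%, 2.61% and 30.6% of the neutrophils of the 4 libraries, so both replicate 2 libraries held more of them; the neutrophil levels given above are sums over all 5 clusters. Cluster 7 held 8 cells in control replicate 1, and no level is given for it there. The median UMIs per cell were 1543, 1773 and 2071 in clusters 1, 3 and 8, against 4335 and 10685 in clusters 6 and 7. Proliferation markers had a mean log2 level of 2.34 above the mean of all clusters in cluster 7. In the other neutrophil clusters this value was between −1.46 and −1.35. The part of depth and of proliferation in the cluster levels was not tested.

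**Figure D4:**
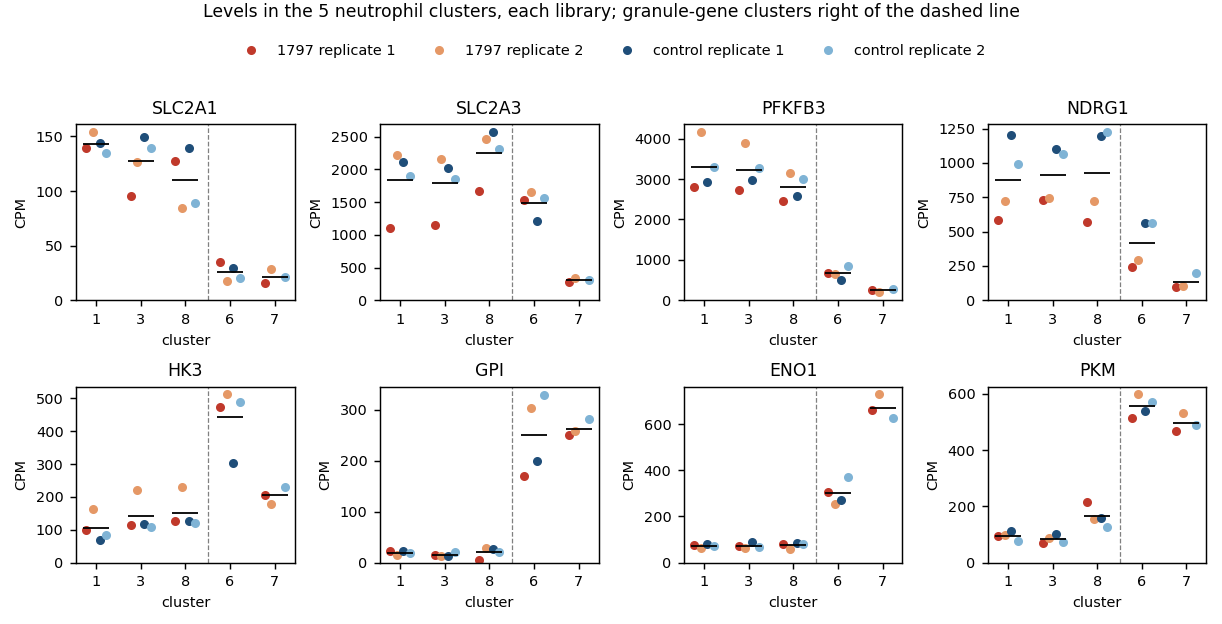
Level (CPM, linear axis from 0) of 8 genes in the 5 neutrophil clusters; points are libraries and horizontal marks are means. PFKFB3 and SLC2A1 are lower, and GPI, ENO1 and PKM higher, in the granule-gene clusters 6 and 7 than in clusters 1, 3 and 8.

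At a finer clustering, osteoclast-like cells formed a class apart from macrophages, with 2010 shallow cells (median 972 to 1172 UMIs by library). CTSK, the bone-matrix protease of osteoclasts, stood there at 3565, 2040, 705.2 and 5472 CPM, so its level varied widely. The macrophage class held 3247 cells at this finer clustering, against 2812 in the main clustering. An unnamed cluster of the main clustering scored highest for osteoclast markers, with 2033 cells and a median of 875 UMIs. Its cells were not matched to the osteoclast-like class. In the osteoclast-like cells GAPDH was 2247 ± 227 CPM, against 1263 CPM in the macrophages of the same finer clustering. PKM was 649 ± 110 CPM against 471 CPM, and the PKM libraries overlapped. PFKL, at 90.1 ± 8.8 CPM, was also higher than in macrophages (47.0 CPM). The regulators were lower in the osteoclast-like cells: PFKFB4 was 32.2 ± 4.2 CPM against 175 CPM, and PFKFB3 was 107 ± 15 CPM against 420 CPM. The hexokinase HK2 was also lower, at 117 CPM against 248 CPM. With a stricter cell filter the osteoclast-like class held 181 deeper cells (median 27835 to 43644 UMIs). PFKL was then 100.7 CPM against 51.3 CPM in macrophages, and PFKFB4 was 20.9 CPM against 159 CPM. GAPDH was 2001 CPM against 1429 CPM and HK2 153.5 CPM against 223.7 CPM, and for both genes the libraries overlapped.

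The second question of the design was whether the peptide changed these genes, and edgeR called none of the 32 within any of the 12 classes large enough to fit or in all cells summed. In the sums over all cells, fewer cells of a type and less RNA per cell cannot be told apart. Over the 13 fits, 25 of 384 tests of the 32 genes (6.51%) had an unadjusted p under 0.05, against 4.4% of all 141466 gene tests. DESeq2 called 1 of them, HK2 in B cells. Of all genes, edgeR called 1, in plasmacytoid dendritic cells (0.0112% of the genes tested there), and 0.0% in every other fit. In the wider list of 92 genes around the same pathways, edgeR likewise called 0 in all 13 fits; 60 of its 914 tests (6.56%) had an unadjusted p under 0.05, against 4.4% of all gene tests, and of the list's genes named by the same rule DESeq2 called HMOX1 in dendritic cells and TXNIP in macrophages. Below, a gene lay above or below where both 1797 libraries were above or below both control libraries.

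**Figure D5:**
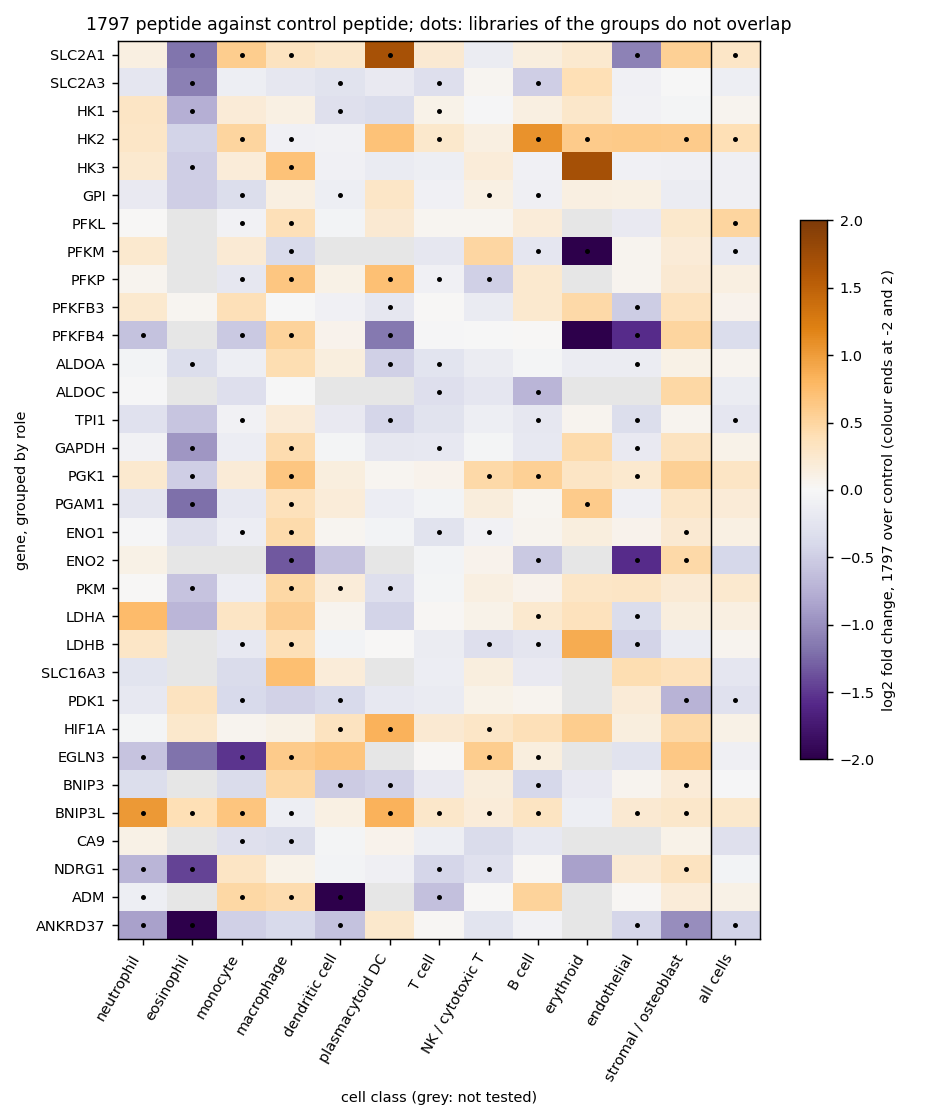
Fitted log2 fold change (1797 against control peptide) of each of the 32 genes in each fitted class; the colour scale ends at 2 in both directions, grey marks genes not tested, and dots mark groups whose libraries did not overlap. Macrophages hold 13 genes with both 1797 libraries above both control libraries, and eosinophils 11 genes with both below.

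In macrophages, the 1797 libraries lay above both control libraries for 13 of the 32 genes (40.6%), against 16.7% of all genes, and below them for 5 (15.6%), against 24.7% of all genes. The median log2 fold change of the 32 was 0.35, and 3 had an unadjusted p under 0.05, against 8.23% of all genes. PFKP stood at 64.4 and 78.1 CPM in the 1797 libraries and 47.6 and 46.9 CPM in the control libraries (log2 fold change 0.65 ± 0.18 SE, edgeR adjusted p = 0.604). PFKFB4 stood at 170.1 and 173.7 CPM against 117.2 and 132.4 CPM (0.52 ± 0.14), and PKM at 546.5 and 670.2 CPM against 438.2 and 473.2 CPM (0.48 ± 0.17), each with the same edgeR adjusted p of 0.604. Among the 5 below were HK2, which differed by −0.08 on the log2 scale, and ENO2, by −1.34.

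The depth of the macrophage cells differed between libraries, with median UMIs of 8971.5, 27398, 7872 and 999.5, and the osteoclast markers summed to 3587, 3111, 1262 and 5381 CPM. Their part in these values was not tested. Without 1797 replicate 2 the median of the 32 was 0.16, and without control replicate 1 it was 0.18; without the shallow cluster of the class it was 0.33. GAPDH, one of the 13, stood at 1391 and 1761 CPM against 1053 and 1384 CPM, so its groups lay only just apart.

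Monocytes, the class with the highest PFKFB4 level, differed in the other direction for that gene. PFKFB4 stood at 809.3 and 938.7 CPM in the 1797 libraries and 1210 and 1448 CPM in the control libraries (−0.55 ± 0.18, edgeR adjusted p = 0.688). EGLN3 was also lower in both 1797 libraries, at 2.48 and 3.61 CPM against 6.01 and 12.8 CPM (−1.53 ± 0.44, edgeR adjusted p = 0.688). Above both control libraries were SLC2A1 (70.7 and 55.3 against 42.3 and 44.7 CPM, 0.59 ± 0.20, edgeR adjusted p = 0.719) and HK2 (386.7 and 357.7 against 222.5 and 323.2 CPM, 0.51 ± 0.20, edgeR adjusted p = 0.757). In all, 4 of 31 genes tested lay above (12.9%, against 14.6% of all genes) and 10 below (32.3%, against 23.8%), and 5 had an unadjusted p under 0.05, against 6.44% of all genes.

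In B cells, HK2 stood at 749.5 and 455.3 CPM in the 1797 libraries and 314.8 and 285.2 CPM in the control libraries (1.07 ± 0.26, edgeR adjusted p = 0.635). DESeq2 gave an adjusted p of 0.00468 for it, and the adjusted p under the other settings tried ranged up to 0.999. PGK1 was also above in both 1797 libraries (33.6 and 37.0 against 22.5 and 28.0 CPM, 0.55 ± 0.19, edgeR adjusted p = 0.689). Of the 32 genes, 5 lay above (15.6%, against 14.4% of all genes) and 8 below (25.0%, against 25.0%), so the counts stood at the background; 2 had an unadjusted p under 0.05, against 7.08%. In T cells, 3 lay above (against 15.1% of all genes) and 8 below (25.0%, against 18.5%), and 1 had an unadjusted p under 0.05, against 4.74%. That gene, NDRG1, stood at 162.5 and 180.9 CPM against 240.2 and 225.3 CPM (−0.42 ± 0.13, edgeR adjusted p = 0.972).

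HK2 lay above in both 1797 libraries in 5 of 12 classes (B cells, T cells, monocytes, erythroid cells and stromal or osteoblast cells) and below in macrophages. Over all cells it stood at 219.5 and 222.7 CPM against 165.9 and 166.5 CPM (0.40 ± 0.16, edgeR adjusted p = 1.00). Of the genes tested in all 12 classes, 12.4% lay above in 5 or more.

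BNIP3L lay above in both 1797 libraries in 9 of 12 classes, the most of any of the 32, which was singled out after the values were seen. In T cells it stood at 104.3 and 91.6 CPM against 79.1 and 83.8 CPM, and in B cells at 122.7 and 101.7 CPM against 95.3 and 91.8 CPM. In monocytes it stood at 228.5 and 160.6 CPM against 121.6 and 133.4 CPM (0.67 ± 0.22, edgeR adjusted p = 0.688), and in plasmacytoid dendritic cells at 94.1 and 86.1 CPM against 51.3 and 48.6 CPM (0.83 ± 0.23, edgeR adjusted p = 0.873). It lay below in macrophages and overlapped in dendritic and erythroid cells, and over all cells the groups overlapped. Of the 2686 genes tested in all 12 classes, 0.41% lay above in 9 or more; the classes share their libraries and are not independent. Erythroid cells, where BNIP3L was highest, numbered 415, 196, 346 and 42, and the erythroid markers in monocytes summed to 2071, 70.9, 576 and 279 CPM. The part of erythroid RNA in these values was not tested.

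In neutrophils the median log2 fold change of the 32 was −0.02 (0.13 without 1797 replicate 1 and −0.27 without 1797 replicate 2), with 1 gene above (6.52% of all genes were) and 5 below (12.6% of all genes were); 0 had an unadjusted p under 0.05 in edgeR, against 1.06% of all genes, and DESeq2 called 0. BNIP3L differed by 1.02 ± 0.54 and NDRG1 by −0.71 ± 0.60, each with an edgeR adjusted p of 1.00. Within every one of the 5 neutrophil clusters, NDRG1 was lower in both 1797 libraries than in each control library with a value: in cluster 1 it stood at 584.5 and 723 CPM against 1204 and 990.3 CPM, and in cluster 6 at 243.5 and 290 CPM against 559.9 and 565.5 CPM. BNIP3L was higher in all 5: in cluster 1 at 936.6 and 526.6 CPM against 329.5 and 312.1 CPM, and in cluster 6 at 695.1 and 785.3 CPM against 608.6 and 657.6 CPM. These cluster values are descriptions, chosen after they were seen. The clusters share their libraries and are not independent, and the share of all genes with such a pattern was not computed. In cluster 7 the only control value was that of replicate 2.

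In endothelial cells, 10 of 30 genes tested lay below in both 1797 libraries (33.3%, against 21.6% of all genes) and 2 above (against 13.3%), and 4 had an unadjusted p under 0.05, against 4.51%. ENO2 stood at 11.98 and 5.49 CPM against 29.0 and 31.3 CPM (−1.57 ± 0.40), on 110, 6, 31 and 170 UMIs. SLC2A1 stood at 9.04 and 6.41 CPM against 20.5 and 16.4 CPM (−1.09 ± 0.37). PFKFB4 stood at 11.3 and 15.6 CPM against 61.6 and 23.4 CPM (−1.57 ± 0.48), with control replicate 1 far above the rest. PFKFB3 stood at 258.4 and 241.6 CPM against 342.7 and 395.0 CPM (−0.51 ± 0.21). The edgeR adjusted p was 0.975 for each of these 4 genes. The cells numbered 724, 78, 169 and 247, and the median log2 fold change of the 30, −0.08, became −0.30 without control replicate 1 and 0.32 without control replicate 2.

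In eosinophils, 11 of 21 genes tested lay below (52.4%, against 14.5% of all genes) and 1 above (against 13.2%), with a median of −0.56; 4 had an unadjusted p under 0.05, against 1.89% of all genes. PGAM1 stood at 143.4 and 172 CPM against 398.4 and 361.5 CPM (−1.21 ± 0.41), and GAPDH at 717.1 and 999.2 CPM against 1526 and 1854 CPM (−0.94 ± 0.41), each with an edgeR adjusted p of 1.00. NDRG1 stood at 91.3 and 73.7 CPM against 379 and 116.4 CPM (−1.44 ± 0.61), and ANKRD37 had 0, 2, 6 and 76 UMIs. ANKRD37 passed the low-count filter only through the control libraries, so its place among the 11 and the 4 was favoured by that filter. The median rested on 1 library: it was 0.05 without control replicate 2 and −0.99 without control replicate 1. The summed eosinophil markers were 6806, 1978, 592.8 and 6378 CPM, so their level also varied within each group.

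In dendritic cells, ADM had 4.31 and 4.95 CPM in the 1797 libraries and 17.4 and 23.5 CPM in the control libraries, on 11, 11, 61 and 86 UMIs (−2.11 ± 0.36, edgeR adjusted p = 0.605). ANKRD37 stood at 25.1 and 31.1 CPM against 45.4 and 41.0 CPM (−0.60 ± 0.25, edgeR adjusted p = 0.752). Of 30 genes tested there, 7 lay below (23.3%, against 19.8% of all genes) and 2 above (against 16.2%), and 2 had an unadjusted p under 0.05, against 6.57%. ANKRD37 lay below in both 1797 libraries in 5 of the 11 classes in which it was tested and above in none. These 5 include eosinophils, where it passed the low-count filter only through the control libraries. Of the genes tested in all 12 classes, a set that leaves out ANKRD37, 10.8% lay below in 5 or more. Plasmacytoid dendritic cells had SLC2A1 at 19.0 and 16.7 CPM against 4.82 and 6.28 CPM, on 37, 31, 14 and 12 UMIs (1.68 ± 0.42, edgeR adjusted p = 0.752), and PFKFB4 at 6.17 and 5.92 CPM against 15.5 and 10.98 CPM (−1.15 ± 0.43, edgeR adjusted p = 0.883). Of 26 genes tested there, 4 lay above (against 17.7% of all genes) and 6 below (against 17.4%), and 3 had an unadjusted p under 0.05, against 5.56%.

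In erythroid cells, PFKM had 1.46 and 10.6 CPM against 56.2 and 35.5 CPM, on 1, 7, 49 and 5 UMIs (−2.89 ± 0.93, edgeR adjusted p = 1.00). It passed the low-count filter only through the control libraries, which favoured a lower value in the 1797 libraries. It was the only one of 22 genes tested there with an unadjusted p under 0.05, against 1.6% of all genes; 2 lay above (against 11.0%) and 1 below (against 15.2%). Of the settings tried, it passed the threshold only when 1797 replicate 2 was left out (−4.67, edgeR adjusted p = 0.0261; the other settings reached 1.00). Stromal or osteoblast cells, which include the bone-forming cells, had 6 of 32 genes above (against 14.5% of all genes) and 2 below (against 15.1%), a median of 0.23 (0.07 without control replicate 1 and 0.43 without control replicate 2), and 0 at an unadjusted p under 0.05 in edgeR, against 2.4%; DESeq2 called 0. In NK or cytotoxic T cells 5 lay above (against 12.2%) and 4 below (against 18.5%), again with 0 at an unadjusted p under 0.05 in edgeR, against 3.58%, and 0 called by DESeq2.

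Over all cells summed, 3 of the 32 genes lay above (9.38%, against 12.6% of all genes) and 4 below (12.5%, against 12.2%), and the median was 0.06 (−0.16 without 1797 replicate 2, −0.06 without control replicate 1, 0.17 and 0.24 without the other libraries); 0 had an unadjusted p under 0.05 in edgeR, against 1.59% of all genes, and DESeq2 called 0. Of the 32 genes, 10 lay above in no class, and the share of all genes that did so was not computed. Some of the 10 were tested in few classes, such as ALDOC in 7, which favours such a count. BNIP3L alone lay above in more than 5 classes, where 6.7% of the genes tested in all 12 lay above in 6 or more. SLC2A3, ALDOA and TPI1 each lay below in 4 classes, where 18.8% of the genes tested in all 12 classes lay below in 4 or more. These 3 genes also lay above in none, a condition that this share does not include.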

How the data were processed

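The authors deposited filtered 10x matrices of raw UMI counts per gene and cell, 1 per library, unnormalized, with separate tables of gene and barcode names. The submitters' processing notes name Cell Ranger 5.0.0 and Sscrofa11.1; the matrix headers name 7.0.1, per the file headers. Whether intronic reads were counted is not given in the sources used here. Cells were kept from 200 detected genes upward when 13 mitochondrial genes held less than 20% of their counts, and 1798 doublets called by Scrublet (rate 0.1) were removed. Clustering (scanpy 1.11.5, igraph 0.11.9) used 2000 variable genes without the 124 listed genes, 30 principal components, 15 neighbours and Leiden resolution 1.0. Counts were summed per class and library; a level needed 10 cells and a fit 30 cells in every library. The main test was edgeR 4.0.16 (quasi-likelihood, TMM, low-count filter) with Benjamini-Hochberg adjustment over all genes of the fit and a threshold of 0.05; DESeq2 1.42.0, other cell filters, cluster resolutions, scaling, a replicate block and leaving out each library were alternatives, and scripts were tested on simulated data. Library depth is the UMI total given above; intervals over cells were not used. The genes and lists were chosen with earlier results of these data known. All 32 genes could be named by level; those named by change had an unadjusted p under 0.05 and groups that did not overlap, at most 6 in each direction per class, in order of p. BNIP3L, the wider-list genes in the closing section and the neutrophil cluster values were singled out after their values were seen.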

Additional observations from a re-analysis of the deposited data

Results flagged for a closer look

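For PFKFB4 and SLC2A1 the change between peptide groups pointed in opposite directions in different classes, with an unadjusted edgeR p under 0.05 and libraries that did not overlap in each of those classes. Other members, such as BNIP3L, HK2 and ADM, also lay above in some classes and below in others, without such a p in both directions. The difference itself was tested with edgeR in a fit over both classes with the library as a block. For PFKFB4, higher in both 1797 libraries in macrophages and lower in monocytes, the log2 fold changes differed by 1.12 ± 0.21 (adjusted p = 0.207). The PFKFB4 change in macrophages differed from that in endothelial cells by 1.96 ± 0.47 (adjusted p = 0.598) and from that in plasmacytoid dendritic cells by 1.69 ± 0.39 (adjusted p = 0.613). For SLC2A1, lower in endothelial cells of both 1797 libraries, the change in monocytes differed by 1.72 ± 0.41 (adjusted p = 0.429) and the change in plasmacytoid dendritic cells by 2.82 ± 0.60 (adjusted p = 0.45). BNIP3L and HK2 lay below in macrophages and above in monocytes. In the fit over these classes, the macrophage change differed from the monocyte change by −0.70 ± 0.25 for BNIP3L (edgeR adjusted p = 0.436). For HK2 it differed by −0.56 ± 0.24 (edgeR adjusted p = 0.508). These adjusted p-values are over all genes of each fit and none passed 0.05. The pairs of classes were picked because the directions of PFKFB4 or SLC2A1 differed.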

How the results depend on the processing

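The number of genes called within the 12 classes, 1 in edgeR, was 275 with DESeq2, 379 without the filter on low counts, 7 with the replicate block, 2 at Leiden resolution 0.5 (11 classes), 3 at resolution 2.0 and 2 with the stricter cell filter (10 classes); it was 34 to 228 when 1 library was left out. In all cells it was 0, except 18 with DESeq2, and 0 to 0 when 1 library was left out. The count of the 32 genes called was 0, except 1 with DESeq2 (HK2 in B cells), 2 without the filter (endothelial ENO2 at −1.56, adjusted p = 0.0152, and PFKFB4 at −1.55, adjusted p = 0.00814; other settings reached 1.0) and 0 to 2 when 1 library was left out, both of the 2 in erythroid cells without 1797 replicate 2; the cause was not tested. The replicate block called 0 of them. Replicate numbers were shared between groups in the labels. Over genes, the deviation of 1797 replicate 1 from its group mean was correlated with that of control replicate 1 from its own. This correlation of deviations was −0.309 in all cells, −0.267 in eosinophils, 0.464 in neutrophils and between −0.096 and 0.087 elsewhere. The labels do not say that a number marks a shared animal or day, so the numbers were not used as a pairing. A crossed block, added after seeing the data, called 0 genes in all cells and in eosinophils. The median of the 32 changed sign under at least 1 setting in 10 of the 13 fits, the exceptions being T cells, macrophages and stromal or osteoblast cells. Of the levels at other cell settings 290 stayed within 1 SD and 17 moved further, and of the medians 145 stayed and 25 moved. Depth limits values on few UMIs, such as erythroid PFKM and eosinophil ANKRD37. The planned share of promoters with a motif was not run.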

Other observations

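In a wider list of 92 measured genes around the same pathways, several genes lay on one side in many classes; they were picked after their values were seen. BHLHE40, a transcriptional repressor and HIF target, lay above in both 1797 libraries in 8 of 12 classes and below in 0, and ARRDC4, a glucose-responsive arrestin, above in 8 and below in 1. VHL, which targets HIF1A for degradation, lay above in 6 of 11, and HMOX1, the haem-degrading oxygenase that is induced by haem and by HIF, above in 6 of 12. SLC16A7, a monocarboxylate transporter, lay below in 8 of 11, PYGB, a glycogen phosphorylase, in 6 of 9, and PDK3 and PGM1 each in 6 of 11. Of the 2686 genes tested in all 12 classes, 6.7% lay above in 6 or more and 1.41% in 8 or more. In the other direction, 5.32% lay below in 6 or more and 1.12% in 8 or more. VHL, SLC16A7, PYGB, PDK3 and PGM1 were tested in fewer classes and are outside that set, and no matching share was computed for them. edgeR called none of the 8 genes picked here in any class. For HMOX1 the values by library follow. Over all cells it stood at 411.1 and 369.7 CPM against 239.6 and 218.7 CPM (0.75 ± 0.17, edgeR adjusted p = 1.00). In dendritic cells it stood at 660.5 and 450.9 CPM against 264.6 and 270.3 CPM (1.08 ± 0.22, edgeR adjusted p = 0.654; DESeq2 adjusted p = 0.0195, and up to 0.827 under other settings). In monocytes it stood at 3065 and 1821 CPM against 1644 and 1239 CPM (0.81 ± 0.31, edgeR adjusted p = 0.757). The erythroid markers given above were high in 1797 replicate 1 and low in 1797 replicate 2; their part in this was not tested.

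TXNIP, a glucose-responsive gene whose product restrains glucose uptake, stood in macrophages at 164.4 and 114.2 CPM in the 1797 libraries and 269.3 and 284.0 CPM in the control libraries (−0.94 ± 0.19, edgeR adjusted p = 0.604; DESeq2 adjusted p = 0.0201, and up to 0.987 under other settings). In stromal or osteoblast cells TXNIP differed in the other direction, at 119.9 and 128.1 CPM against 79.8 and 77.3 CPM (0.65 ± 0.25). Of the 12 classes, it lay above in 2 and below in 1. By class, EPAS1, the HIF subunit typical of endothelium, had its level of 652 ± 101 CPM in endothelial cells. PLOD2, a collagen-modifying enzyme and HIF target, reached 1075 CPM in chondrocytes and 693 CPM in stromal or osteoblast cells.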
